A study of Mus musculus with 27 samples.

Results

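The genes described here are 10 genes associated with the mesothelium, of 37208 genes or transcripts measured in the series: Msln, Wt1, Upk3b, Upk1b, Krt7, Krt8, Krt18, Krt19, Lrrn4 and Gpm6a. They were chosen by a reading of these same arrays, because the level of Msln was lower with DOX in smooth muscle (SM) cells, so the SM difference with DOX is given below as a description and was not tested for any of them. The dnFOS line is a mouse embryonic stem cell (ESC) line, grown on mouse embryonic feeder cells, with a Flag-tagged dominant-negative FOS peptide placed behind a doxycycline (DOX)-inducible promoter at the Hprt locus. The peptide pairs with JUN proteins and keeps them off DNA, and every group, controls included, carried the cassette. Picked clones were differentiated as embryoid bodies for 3.75 days, and FLK1+ cells, which give rise to blood and vascular cells, were purified and grown in blast culture with VEGF and IL-6. The 13 groups were untreated FLK1+ cells, and 6 later populations, each without DOX and with DOX at 1 µg/ml. These were complete cultures after 5 h (FLK1+ 5h) and after 24 h (d1 BC), and the SM, early hemogenic endothelial (HE1, KIT+TIE2+CD41-), late hemogenic endothelial (HE2, KIT+TIE2+CD41+) and hematopoietic progenitor cells (HP, KIT+TIE2-CD41+) sorted after 2 days. DOX was given for 5 h, 1 day or 2 days, that is, for the length of each culture. How many clones were used is not given in the sources used here, and cells without the cassette given DOX were not analysed here. Each group had 2 one-colour Agilent arrays, apart from untreated SM with 3.

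The mesothelium is the flat epithelium that lines the body cavities and covers the organs in them, and in the heart its counterpart is the epicardium. Mesothelial cells are of mesodermal origin but carry keratins and epithelial junctions, and they can lose these and give rise to smooth muscle and fibroblasts. MSLN is a cell surface protein that binds the mucin MUC16, WT1 is a zinc finger transcription factor of the epicardium, kidney and gonad, UPK3B and UPK1B are membrane proteins of the uroplakin family, KRT7, KRT8, KRT18 and KRT19 are keratins of simple epithelia, LRRN4 is a leucine-rich repeat membrane protein, and GPM6A is a membrane glycoprotein best known from neurons. Krt8, Krt18 and Krt19 are also made by trophoblast, endoderm and surface epithelia, so they do not mark the mesothelium alone.

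AP-1 (JUN with FOS or another partner) and TEAD proteins, the DNA-binding end of the Hippo pathway, are the factors that the study set side by side, so promoters of the members were searched for the letters each one reads. RefSeq promoters (GRCm38.p6) were listed for 6 of the 10 members, as 7 start sites, and not for Msln, Wt1, Upk1b and Krt19. The 250 bases before each start were read on both strands. The AP-1 letters TGANTCA were in 0 of the 7 windows and in 6.75% of all 32851 promoters of that length. The TEAD letters GGAATG were in 3 of the 7 and in 12.6% of all. These 3 windows are shown because they hold the TEAD letters, in capitals, and belong to a uroplakin gene and to the pair of members, Lrrn4 and Gpm6a, whose levels were higher with DOX in most same-slide pairs. They lie at chr2:132880863-132881112 on the minus strand (Lrrn4), chr5:136038246-136038495 on the plus strand (Upk3b) and chr8:54779184-54779433 on the plus strand (Gpm6a, the first of its 2 starts), each printed 5′ to 3′.
Lrrn4: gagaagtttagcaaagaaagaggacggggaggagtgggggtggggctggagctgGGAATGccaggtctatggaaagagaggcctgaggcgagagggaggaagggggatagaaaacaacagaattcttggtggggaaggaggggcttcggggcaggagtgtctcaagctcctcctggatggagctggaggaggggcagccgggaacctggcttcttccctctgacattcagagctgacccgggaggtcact
Upk3b: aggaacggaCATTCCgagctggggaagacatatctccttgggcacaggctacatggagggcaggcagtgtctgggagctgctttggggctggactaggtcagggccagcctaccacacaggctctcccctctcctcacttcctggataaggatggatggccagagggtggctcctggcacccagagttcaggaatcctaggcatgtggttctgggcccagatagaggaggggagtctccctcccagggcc
Gpm6a: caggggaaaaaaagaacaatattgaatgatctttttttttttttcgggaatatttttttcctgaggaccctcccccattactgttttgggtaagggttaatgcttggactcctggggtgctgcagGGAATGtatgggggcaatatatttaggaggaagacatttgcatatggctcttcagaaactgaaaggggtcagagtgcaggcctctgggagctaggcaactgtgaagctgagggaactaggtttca
In Upk3b the letters are on the other strand and read CATTCC here. The capitals begin 196 bases before the start in Lrrn4, 241 in Upk3b and 125 in Gpm6a. They are matches of letters and no binding was measured here. The paper placed most FOS, JUN and TEAD4 binding at distal sites, within introns or between genes, which such windows do not cover. With 7 windows, the count of 0 for AP-1 says little about these genes.

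Levels are given below as log2 of the background-subtracted signal relative to the 75th percentile of its array, 1 probe per gene, so a level of 0 is that percentile and levels of different genes are not compared. That percentile lay between 73.2 (HE2 untreated replicate 1) and 636 (FLK1+ 5h untreated replicate 2), and between 46.8% and 89.6% of probes were well above the background of their array. Hprt, at whose locus the peptide is encoded, was higher on every DOX array than on every untreated array of its population, by 2.65-fold at 5 h and by 12.3-fold in d1 BC, the lowest and the highest of the 6 populations. The number of arrays limits the precision of every value, and the labels do not say whether the arrays of a group came from separate cultures, so p-values measure the spread between these arrays, which may be technical. Fewer cells of a type and less RNA per cell cannot be told apart in these samples.

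Both SM replicate 2 arrays, untreated and DOX, stood apart from the other 3 SM arrays. The summed signal of 10 endothelial markers, on a scale where the 75th percentile of the array is 1, was 115 and 155 on these 2 arrays and between 13.3 and 20.6 on the other 3, against 152 to 295 in HE1 cells. All 10 of these markers were well above background on both replicate 2 arrays, and 8 to 10 of them on the others. Summed fibroblast markers ran the other way, at 21.7 and 23.0 against 41.8 to 88.4, as did pluripotency markers, at 3.66 and 2.42 against 14.8 to 25.5. The smooth muscle markers Acta2, Tagln, Cnn1, Myh11, Myl9, Cald1, Smtn, Actg2 and Myocd were well above background on all 5 SM arrays, and the summed signal of the 10 smooth muscle markers was 2060 and 1720 on the replicate 2 arrays and 782 to 1595 on the others. These 2 arrays were on a slide with no other SM array, so slide and sample cannot be told apart. Of the 9 members tested in SM cells, 5 (Upk1b, Krt7, Krt8, Krt19 and Gpm6a) had both replicate 2 arrays on one side of the other 3, beside 58.9% of all genes tested, so this split was shared by most of the array. Upk3b, whose spot on untreated SM replicate 3 was an outlier and was dropped, was not among the 9.

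Each of the 10 members was well above background throughout 1 group or more. Of 17 further mesothelial and epicardial genes found on the array, 13 were well above background on all 3 untreated SM arrays, among them the transcription factors Bnc1, Gata4, Gata6 and Tcf21, the retinoic acid enzymes Aldh1a1 and Aldh1a2 and the surface glycoprotein Pdpn. The count was 8 to 14 in the other untreated groups, the most at 5 h, and 58.7% of all genes were so detected in untreated SM cells. Calb2 and Tbx18, both often used to define mesothelium or epicardium, were not among these 13, and Muc16 was not matched to a probe. The epithelial junction genes Cdh1, Epcam and Dsp were also well above background on all 3. Whether mesothelial cells as such were present in the cultures was not tested.

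Among untreated cells, Msln was well above background at 5 h, in d1 BC and in SM cells, and in no other population. In untreated FLK1+ cells its levels were -6.32 and -5.83, not well above background on either array. After 5 h of blast culture they were -1.63 and -2.16, in d1 BC -1.20 and -3.81, and in SM cells -2.24, -2.69 and -2.36. In HE1 (-3.47 and -4.03), HE2 (-4.97 and -6.02) and HP cells (-6.73 and -7.51) no array was well above background. The order of the group means was thus FLK1+ 5h, SM, d1 BC, and then the rest. The d1 BC arrays overlapped both other groups, and both 5 h arrays lay above all 3 SM arrays.

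The rise of Msln at 5 h was at least 4.92-fold, the untreated FLK1+ arrays being below background, and the fitted log2 difference was 4.18 ± 0.71 (SE, 2 arrays against 2; limma adjusted p = 0.00316). Against the FLK1+ arrays of the same slide it was 3.91. The call was lost without untreated FLK1+ 5h replicate 1 (adjusted p = 0.100) and with the normexp background correction (1.17, adjusted p = 0.474). From d1 BC to HE1 the arrays overlapped (adjusted p = 0.377), and the difference of -1.24 was 0.060 without d1 BC replicate 1, -2.55 without d1 BC replicate 2 and 0.32 with normexp. Neither HE1 array was well above background, so these values are not measured folds. The bound was at least 5.72-fold lower without d1 BC replicate 2, and there was none without d1 BC replicate 1.

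With DOX, Msln in SM cells read -6.93 and -5.74, below background on both arrays and under all 3 untreated arrays. The difference used to choose the genes was a log2 fold change of -3.91, or at least 5.52-fold lower. Pairs of one number on one slide gave -4.70 and -3.05, and without both replicate 2 arrays the difference was -4.63. With the background correction by normexp it was -1.30, and on the authors' processed values -1.28. Untreated SM replicate 2 had the highest share of probes well above background, 89.6%, against 65.5% on DOX replicate 2. Calb2 read -2.40 there, against -6.84 and -6.13 on the other untreated arrays and -6.98 on DOX replicate 2. Slpi was not raised there, at -4.60 against -4.05 and -4.76, and Msln read -2.69 against -2.24 and -2.36. What that array adds to the -3.05 was not tested.

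The other populations were not used to choose the gene. In d1 BC with DOX, Msln read -4.93 and -5.25, below background on both arrays, where both untreated arrays were above it. The level was at least 5.74-fold lower, with a fitted log2 difference of -2.59 ± 0.71 (SE; limma adjusted p = 1.00), so this change did not pass the test over all genes. It leaned on the untreated arrays, which lay far apart: without untreated replicate 1 the difference was -1.28 and the bound 2.32-fold, and the same-slide pairs gave -3.73 and -1.44. At 5 h the DOX arrays (-2.10 and -2.91) overlapped the untreated ones. The range of the 9 same-slide pairs outside SM was -3.73 to 1.24, with 7 of them lower. In the 6 HE1, HE2 and HP pairs no array was well above background with or without DOX, which leaves 3 pairs with a measured level, all lower.

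**Figure D1:**
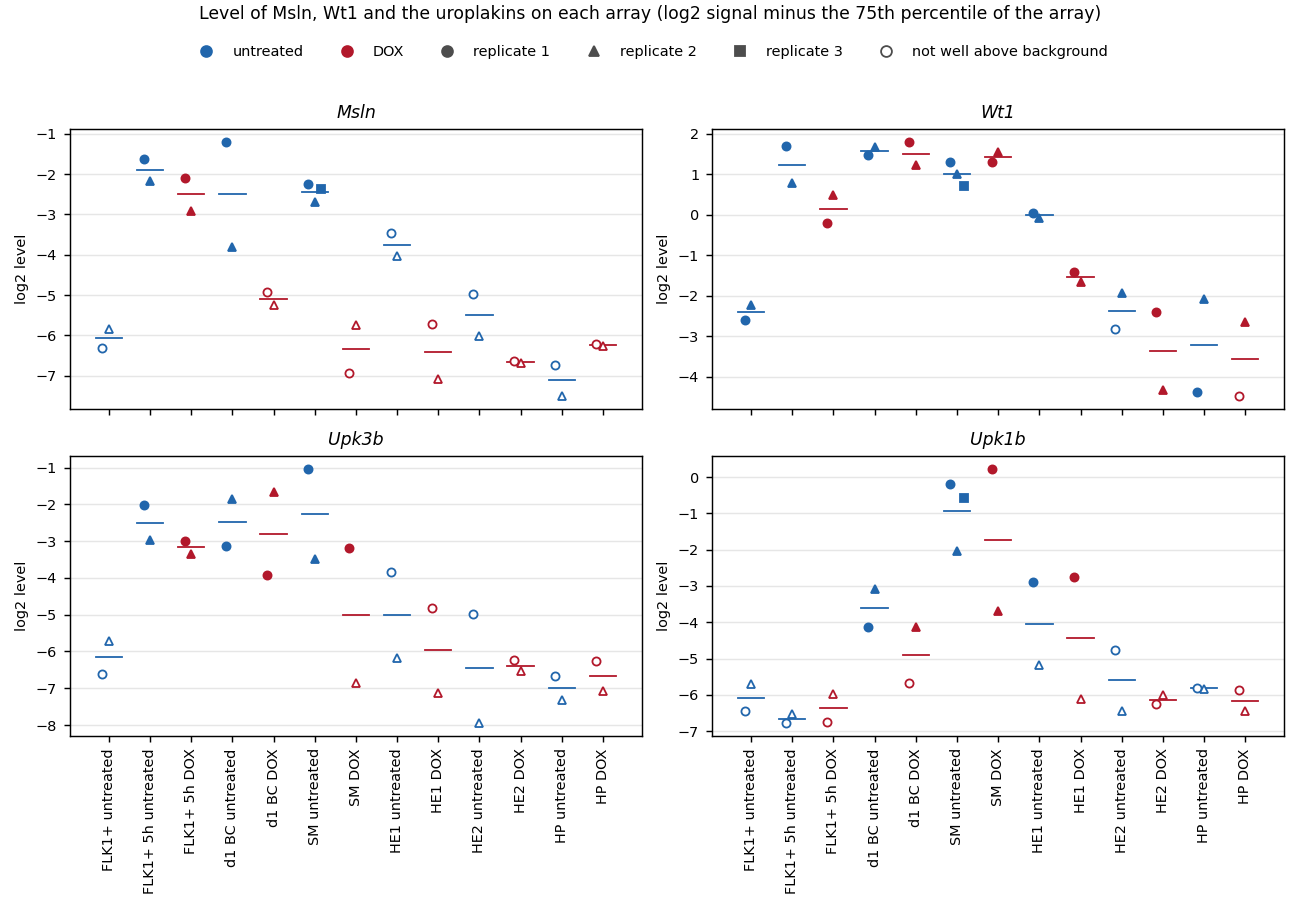
Level of Msln, Wt1, Upk3b and Upk1b on each of the 27 arrays, as log2 signal relative to the array's 75th percentile, in the 13 groups in culture order; blue is untreated, red is DOX, bars are group means, and open symbols are not well above background. Msln was above background at 5 h, in untreated d1 BC and in untreated SM cells, Wt1 in nearly every group, and Upk1b was highest in SM cells.

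Wt1 rose within 5 h of blast culture and was lower again in the blood-forming populations. Untreated levels were -2.60 and -2.22 in FLK1+ cells, 1.69 and 0.77 at 5 h, and 1.48 and 1.67 in d1 BC. They were 1.30, 1.01 and 0.70 in SM cells, 0.03 and -0.07 in HE1, -2.83 and -1.93 in HE2, and -4.38 and -2.08 in HP. The 5 h, d1 BC and SM arrays formed an upper band, HE1 came below all of them, and the FLK1+, HE2 and HP arrays formed a lower one whose members overlapped.

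The rise of Wt1 from FLK1+ to 5 h was 12.5-fold, a log2 difference of 3.64 ± 0.74 (SE, 2 arrays against 2; limma adjusted p = 0.0115), and on the shared slide 3.19. It passed no longer without FLK1+ replicate 1 (adjusted p = 0.102), without FLK1+ 5h replicate 1 (0.230), or with slide as a fixed block (0.110). From d1 BC to HE1 the log2 difference was -1.59 (adjusted p = 0.280) and from HE1 to HE2 it was -2.36 (adjusted p = 0.124), with 1 of the 2 HE2 arrays above background. The level of Wt1 varied over the 7 untreated groups (moderated F, adjusted p = 8.70e-05).

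With DOX, Wt1 read -1.41 and -1.66 in HE1, below both untreated arrays, and the log2 difference was -1.51 ± 0.74 (adjusted p = 1.00). At 5 h it read -0.20 and 0.48, again below both untreated arrays, with a difference of -1.09 (adjusted p = 1.00). Without untreated replicate 1, which shared no slide with another 5 h array, that difference was -0.63, and the same-slide pair gave -0.29. In SM cells it read 1.30 and 1.55, the lower of which equalled the highest untreated array to this precision, and the difference, not tested, was 0.42. In d1 BC, HE2 and HP the DOX and untreated arrays overlapped.

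Among the members, the uroplakins behaved unlike each other along the culture. Upk3b was below background on both FLK1+ arrays and above it at 5 h (-2.03 and -2.98) and in d1 BC (-3.12 and -1.86), with a log2 difference at 5 h of 3.66 (at least 3.22-fold, adjusted p = 0.142). Upk1b was still below background at 5 h (-6.77 and -6.53), and was above it in d1 BC (-4.12 and -3.08). In SM cells Upk1b read -0.20, -2.03 and -0.58, above every d1 BC and HE1 array (HE1 -2.90 and -5.17). The SM minus HE1 log2 difference for Upk1b was 3.10 ± 1.04 (adjusted p = 0.223), and it was 3.64 (adjusted p = 0.0371) without both SM replicate 2 arrays. The lower HE1 array, replicate 2, was not well above background, and without it the difference was 1.97 (adjusted p = 0.960). Both genes varied over the untreated groups (adjusted p = 0.0148 for Upk3b and 0.00352 for Upk1b).

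With DOX, Upk3b in SM cells read -3.18 and, below background, -6.86, beside -1.03 and -3.48 untreated. Upk1b read 0.23 and -3.69. In both genes the SM arrays with and without DOX overlapped, and the lower DOX value was the replicate 2 array. The same-slide SM pairs gave -2.15 and -3.37 for Upk3b and 0.43 and -1.66 for Upk1b. Outside SM, each gene had no array well above background in 6 of 9 same-slide pairs, which were not all the same pairs for both. Of the 3 pairs left for each gene, 2 were lower for Upk3b and 2 for Upk1b. In d1 BC the DOX arrays of Upk1b (-5.67 and -4.14) lay just under the untreated ones, with an adjusted p of 1.00.

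Krt8, Krt18 and Krt19 were high in early culture, and Krt18 fell from d1 BC to HE1. Krt8 and Krt18 pair to form the filaments of simple epithelia, and Krt19 is the smallest keratin and pairs with Krt7 or Krt8. Untreated Krt18 read 7.18 and 6.88 in FLK1+ cells, 9.30 and 8.54 at 5 h, 9.63 and 9.07 in d1 BC, and 8.95, 8.82 and 8.18 in SM cells. It then read 7.15 and 5.05 in HE1, 3.28 and 3.33 in HE2, and 4.24 and 6.50 in HP. No HE1 array reached the lowest d1 BC array, and both HE2 arrays lay under both HE1 arrays.

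From d1 BC to HE1 Krt18 fell by 3.25 ± 0.75 on the log2 scale (SE, 2 arrays against 2; limma adjusted p = 0.0219). These groups share no slide, and with slide as a fixed block the difference was -2.61 (adjusted p = 0.304). The call also ended in the fit to these 2 groups alone (0.156), and without d1 BC replicate 1 (0.162), d1 BC replicate 2 (0.125) or HE1 replicate 2 (0.279). From HE1 to HE2 the difference was -2.80 (adjusted p = 0.0563), with -3.88 on slide 1 and -1.73 on slide 3. It was called in 9 of 41 alternatives, with adjusted p as low as 0.0176 on the authors' values, and was -1.75 (adjusted p = 0.501) without HE1 replicate 1.

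Krt19 read 5.93 and 5.82 in untreated d1 BC, 2.99 and 1.74 in HE1, and -2.22 and -1.37 in HE2, and neither step passed the test. Its log2 difference was -3.51 from d1 BC to HE1 (adjusted p = 0.105) and -4.15 from HE1 to HE2 (adjusted p = 0.0648), and they were called in 4 and 9 of 41 alternatives. Krt8 read 7.63 and 7.78 in d1 BC, and then 3.84 on one HE1 array and 0.03 on the other. Across the 13 group means the correlation was 0.97 between Krt8 and Krt19, 0.95 between Krt18 and Krt19 and 0.95 between Krt8 and Krt18, as a description over points that share arrays and scaling. Krt8, Krt18 and Krt19 varied over the untreated groups (adjusted p = 0.0357, 3.65e-05 and 0.000111), and Krt7 did not pass (0.290).

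Krt8 was the member whose replicates differed most. In SM cells it read 6.93, 1.37 and 7.05 untreated and 6.98 and -0.24 with DOX. The 1.37 and the -0.24 were the replicate 2 arrays, while Krt18, its partner, read between 8.18 and 8.95 on all 5. On these 2 arrays the summed surface ectoderm and trophoblast markers were 20.2 and 17.4, against 29.9 to 45.2 on the other SM arrays, and the summed visceral endoderm markers 16.5 and 15.3 against 3.29 to 4.92. These sums rest heavily on bright genes. In the first, Hand1 read 3.48 and 3.23 against 4.20 to 4.88, while Plet1 was higher on both. Its mean log2 level was -0.61 and -1.22 against -0.56 to -0.17. In the second, Sox17 read 2.96 and 3.02 against -2.31 to -1.18, while Rbp4 was lower on both and Afp, Ttr and Apoa1 overlapped. In HE1 Krt8 read 3.84 and 0.03 untreated and 3.58 and -3.44 with DOX, again lower on replicate 2, where the summed endothelial signal was 244 and 295 and on replicate 1 152 and 166. There too the ectoderm and trophoblast sum was lower (10.01 and 8.28 against 24.4 and 22.7) and the visceral endoderm sum higher (23.8 and 32.6 against 8.19 and 6.73). The within-group SD of Krt8 was 2.64, larger than that of 99.99% of genes well above background in at least 1 group (median 0.735). What these other cell markers contribute to the levels was not tested.

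**Figure D2:**
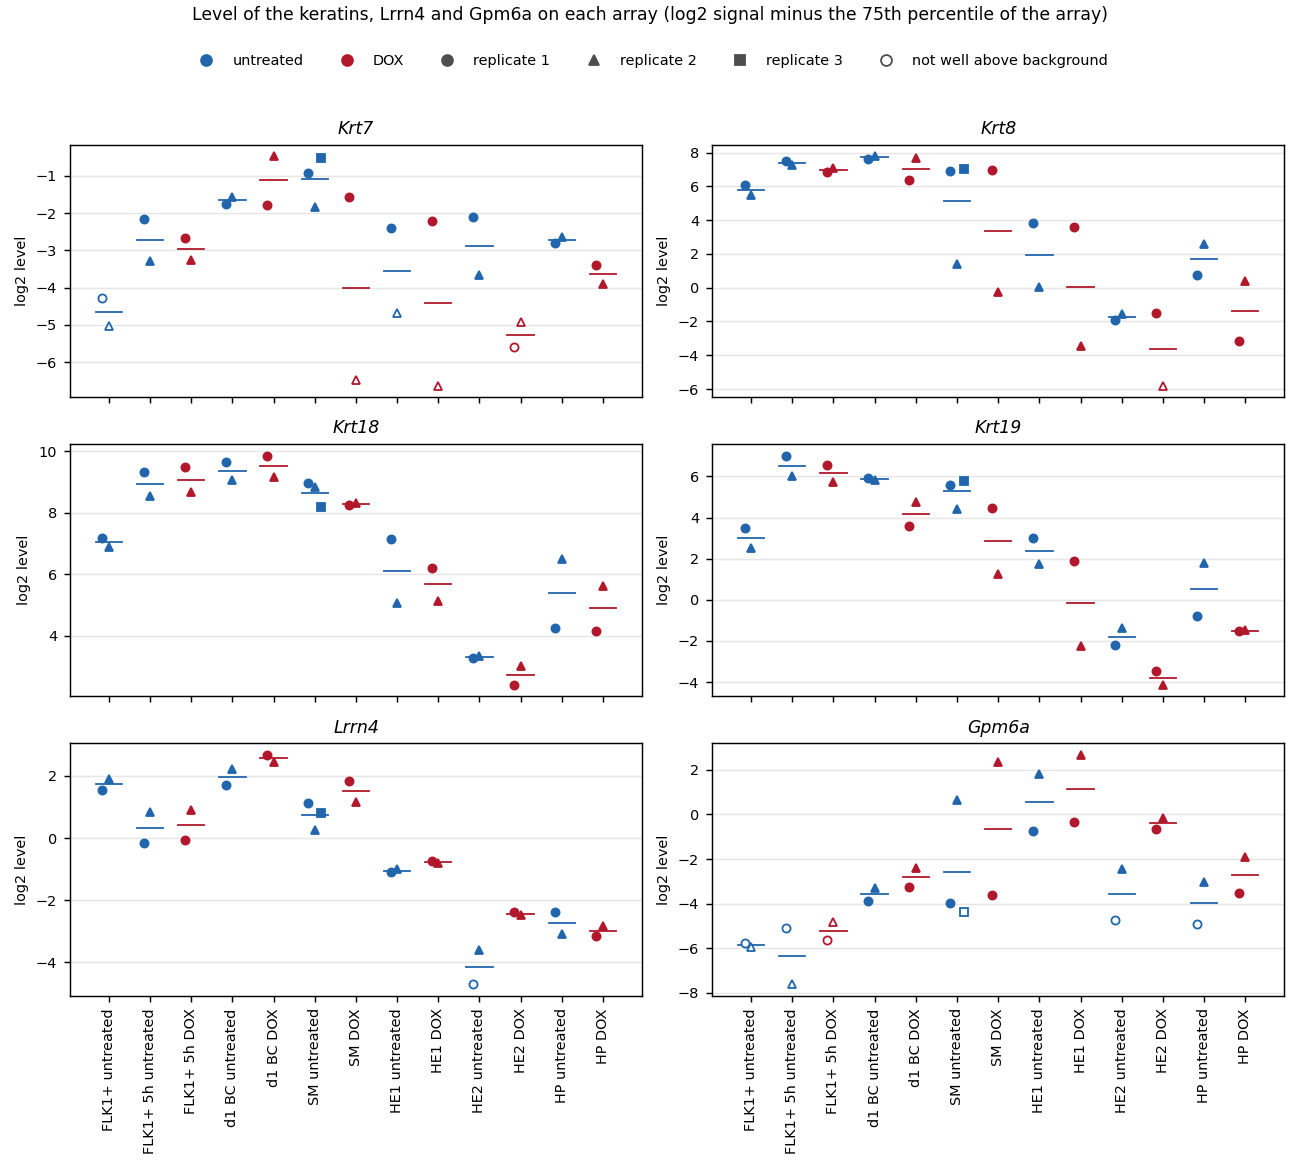
Level of Krt7, Krt8, Krt18, Krt19, Lrrn4 and Gpm6a on each array, as log2 signal relative to the array's 75th percentile, in the 13 groups in culture order; symbols and colours are as for Msln and Wt1. Both HE1 untreated arrays lie below both d1 BC untreated arrays, and both HE2 arrays lie lower still, for Krt18, Krt19 and Lrrn4, and the SM replicate 2 arrays (triangles) were low for Krt8 and high for Gpm6a.

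With DOX, Krt19 was the one keratin lower in all 9 same-slide pairs outside SM, by 0.29 to 3.98 on the log2 scale. Across all genes tested for a mean effect, 0.474% were lower in all 9 pairs. In d1 BC the DOX arrays read 3.59 and 4.74 against 5.93 and 5.82, in HE2 -3.45 and -4.14 against -2.22 and -1.37, and in HP -1.54 and -1.47 against -0.79 and 1.81. In these 3 populations every DOX array lay under both untreated arrays. In HE1 it read 1.90 and -2.24 against 2.99 and 1.74, so that the arrays overlapped, and without DOX replicate 2 the HE1 difference of -2.53 became -0.46. In HP it was -2.02, and -0.72 without untreated replicate 2. The mean DOX effect on Krt19 over the 5 populations other than SM was -1.73 ± 0.51 (SE; limma adjusted p = 0.490), which did not pass over all genes. The summed surface ectoderm and trophoblast markers were also lower with DOX in both pairs of d1 BC, HE1 and HE2. In d1 BC replicate 2 they went from 31.1 to 17.6. They rose in both HP pairs, from 5.48 to 12.9 and from 3.98 to 4.52, and hardly moved in the 5 h pair (46.2 and 46.3). What these markers contribute to the Krt19 differences was not tested.

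Both SM pairs were also lower for Krt19, at 4.46 and 1.26 with DOX against 5.60, 4.44 and 5.78 untreated. The SM arrays with and without DOX overlapped, and the 1.26 and the 4.44 were the replicate 2 arrays. Krt8 was lower in 8 of 9 pairs outside SM, with -3.93 and -2.21 in HP, and its mean effect was -1.58 ± 1.04 (adjusted p = 0.851), or -0.88 without HE1 DOX replicate 2. Krt7 was below background on both DOX arrays of HE2 (-5.59 and -4.93) and above it on both untreated ones (-2.10 and -3.67). That is at least 3.16-fold lower, with a fitted difference of -2.38 (adjusted p = 0.540), and -1.59 without the dim untreated HE2 replicate 1, whose 75th percentile was 73.2 and whose summed surface ectoderm and trophoblast markers were 40.9, against 4.13 to 5.22 on the other HE2 arrays. The part of that library in the HE2 differences was not tested beyond leaving it out. Krt18 stayed within -0.97 and 0.22 in the 9 pairs.

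Lrrn4 had the tightest replicates among the members, with a within-group SD of 0.437. Untreated levels were 1.54 and 1.90 in FLK1+ cells, -0.15 and 0.82 at 5 h, 1.72 and 2.24 in d1 BC, and 1.12, 0.27 and 0.80 in SM cells. They were -1.11 and -0.99 in HE1, -4.71 and -3.60 in HE2, and -2.39 and -3.09 in HP. Each step from d1 BC to HE1 and from HE1 to HE2 was without overlap. The -4.71, on the dim HE2 replicate 1 array, was not well above background, so HE2 was measured on 1 of its 2 arrays.

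Lrrn4 fell by 3.03 ± 0.52 from d1 BC to HE1 (SE, 2 arrays against 2; limma adjusted p = 0.00368) and by 3.11 ± 0.52 from HE1 to HE2 (adjusted p = 0.00312), both on the log2 scale. The first call ended with slide as a fixed block (adjusted p = 0.0815), in the fit to the 2 groups alone (0.0840) and without d1 BC replicate 2 (0.0799). The second was -2.62 on slide 3, where both arrays were above background, and -3.60 on slide 1, where the HE2 array was not, and it ended with normexp (-1.18, adjusted p = 0.473), median scaling (0.0654), the 2 groups alone (0.453), or without HE1 replicate 1 (0.0506) or HE2 replicate 1 (0.0650). Over the untreated groups Lrrn4 varied (adjusted p = 5.22e-07).

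With DOX, Lrrn4 in HE2 read -2.39 and -2.48, above both untreated arrays, with a log2 difference of 1.72 ± 0.52 (adjusted p = 0.540). Without the dim untreated HE2 replicate 1, which was below background, the difference was 1.17. In SM cells it read 1.84 and 1.17, above all 3 untreated arrays, which was not tested. It was higher in 8 of 9 same-slide pairs outside SM, and its mean effect was 0.48 ± 0.23 (adjusted p = 0.851).

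Gpm6a ran against most of the other members, with a negative correlation to 8 of the other 9 across the 13 group means, down to -0.56 with Krt8. It was below background on all FLK1+ and 5 h arrays and above it in untreated d1 BC (-3.87 and -3.28). In HE1 it read -0.73 and 1.83, in HE2 -4.72 (below background) and -2.43, and in SM cells -3.99, 0.66 and -4.40. The 0.66 was the SM replicate 2 array, and the DOX array of that number read 2.35 beside -3.62. The log2 difference was 4.13 from d1 BC to HE1 (adjusted p = 0.221) and -4.13 from HE1 to HE2 (adjusted p = 0.361).

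With DOX, Gpm6a was higher in all 9 same-slide pairs outside SM, by 0.37 to 4.08 on the log2 scale, beside 2.53% of all genes tested for a mean effect. The 5 h pair among these was below background on both arrays, and the untreated array was below background in the replicate 1 pairs of HE2 (the 4.08) and HP, so that 6 pairs were measured on both sides. In HE2 it read -0.64 and -0.14 with DOX, above both untreated arrays, a difference of 3.19 ± 1.71 (adjusted p = 0.540), or 2.04 without untreated HE2 replicate 1. The mean effect was 1.39 ± 0.76 (adjusted p = 0.851). The summed signal of the 10 endothelial markers was also higher with DOX in all 9 of these pairs. In HE2 it went from 97.5 to 149 and from 140 to 207. Their mean log2 level did not rise in every pair, and in HE1 replicate 2 it went from 3.57 to 3.10. Whether Gpm6a and these markers are linked was not tested.

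**Figure D3:**
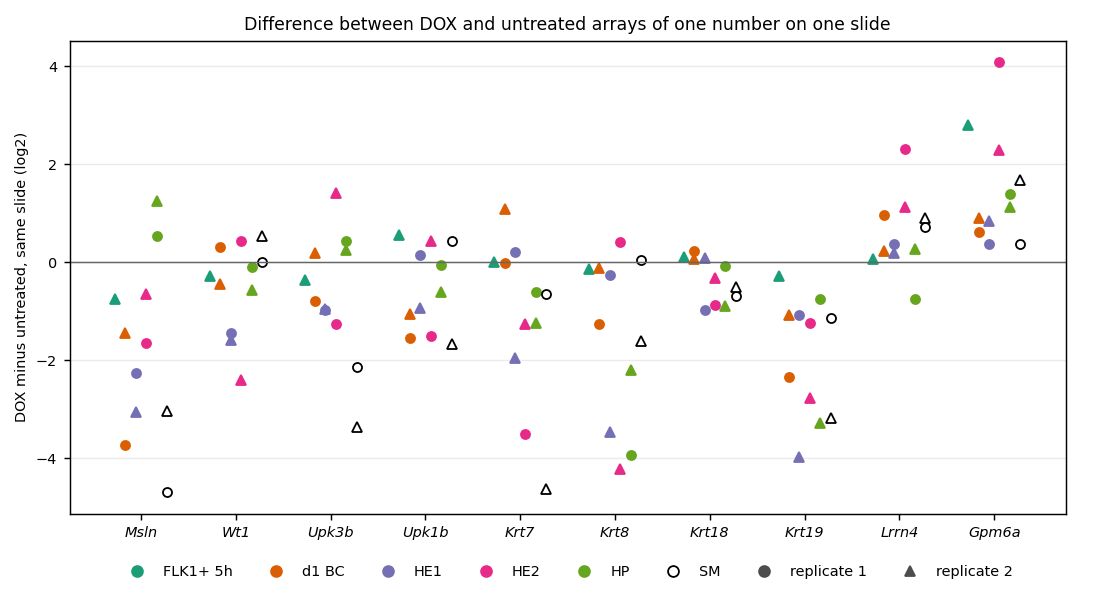
Difference in log2 level between the DOX and the untreated array of one number on one slide for each member, in 9 pairs outside SM (filled symbols, coloured by population) and 2 SM pairs (open symbols); circles are replicate 1 and triangles replicate 2. All 9 filled symbols lie below 0 for Krt19 and above 0 for Gpm6a, and the 2 SM pairs for Msln read -4.70 and -3.05.

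Over the 10 members, no DOX effect passed the test outside SM. In the 5 populations 0 members were called (at an adjusted p under 0.05 and at least 2-fold), of 8 tested at 5 h, 10 in d1 BC, 6 in HE1, 7 in HE2 and 7 in HP. Of all genes tested, 0.00421% were called at 5 h, 0% in d1 BC, 0% in HE1, 0% in HE2 and 0.0398% in HP, so calls were rare across the array. At an unadjusted limma p under 0.05 there was 1 member in d1 BC (Msln), 1 in HE1 (Krt19) and 1 in HE2 (Lrrn4), and 0 at 5 h and in HP. Over all genes tested this threshold was passed by 1184 of 23758 at 5 h, 344 of 23955 in d1 BC, 265 of 23199 in HE1, 2148 of 24080 in HE2 and 880 of 25121 in HP. The mean effect over the 5 populations called 0 of 10 members beside 0.0356% of all genes, with 3 members (Msln, Wt1 and Krt19) and 1426 of 28088 genes at an unadjusted p under 0.05. Msln had the lowest adjusted p, 0.331, at -1.23 ± 0.32, and this was 0.0477 with slide as a random block. In 3 of the 5 populations averaged (HE1, HE2 and HP) no Msln array was well above background, so that mean takes in differences between background readings and its size is not a measured fold. The F test for unequal DOX effects called 0 of 10 members and 0% of all genes, with 694 of 28088 genes at an unadjusted p under 0.05. Among them was 1 member, Msln, for which 3 of the 5 effects compared were again differences between background readings.

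In several members the DOX and untreated arrays did not overlap, as was frequent over all genes. Without overlap were 3 of 8 members tested at 5 h (35.1% of all genes tested), 5 of 10 in d1 BC (28.3%), 2 of 6 in HE1 (17.1%), 5 of 7 in HE2 (34.8%) and 3 of 7 in HP (38.1%). In SM cells, whose DOX contrast served for the choice, the arrays of Msln were apart by that choice, and of the other 8 members tested 2, Wt1 and Lrrn4, were without overlap, both higher (10.6% of all genes, given as a description). The median log2 difference of the 10 members for the mean effect was -0.62, beside 0.16 over all genes tested. It was -0.24 without HE1 DOX replicate 2, -0.21 with normexp and -0.38 on the authors' values, and it takes in Msln, Upk3b and Upk1b, for each of which 6 of the 9 same-slide pairs had no array well above background.

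**Figure D4:**
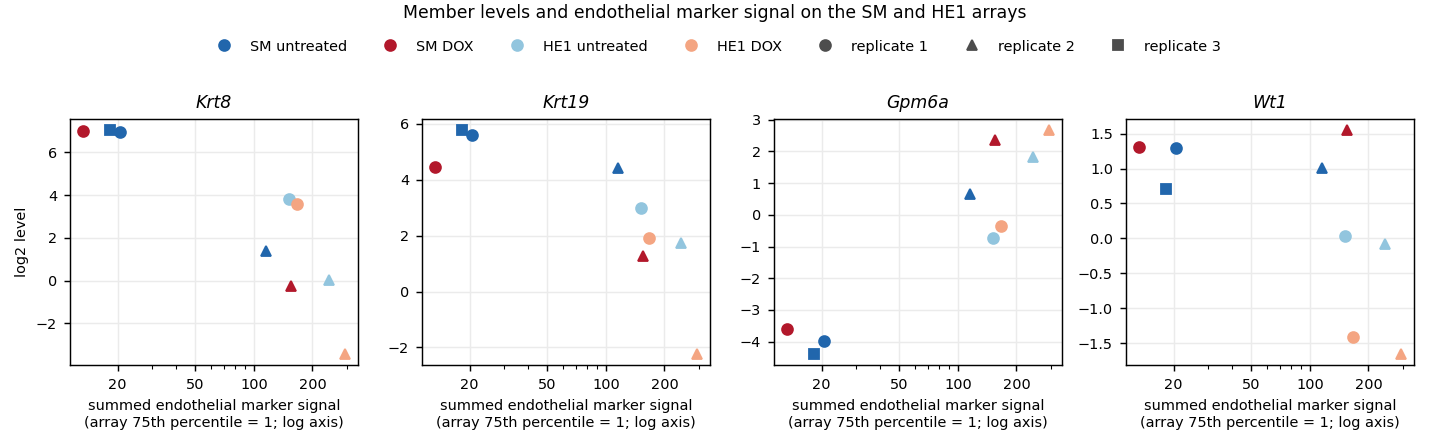
Log2 level of Krt8, Krt19, Gpm6a and Wt1 (vertical axes) against the summed signal of 10 endothelial markers (horizontal log axis, 75th percentile of the array as 1) on the 5 SM and 4 HE1 arrays. The SM replicate 2 arrays, at 115 and 155, lie apart from the other SM arrays, at 13.3 to 20.6, with lower Krt8 and higher Gpm6a, while Wt1 on the 5 SM arrays lies between 0.70 and 1.55.

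Steps between untreated populations gave 5 calls among the members. There were 2 of 8 from FLK1+ to 5 h (Msln and Wt1, both higher; 2.84% of all genes were called), 0 of 10 from 5 h to d1 BC (1.44%), and 2 of 10 from d1 BC to HE1 (Krt18 and Lrrn4, both lower; 3.13%). There was 1 of 7 from HE1 to HE2 (Lrrn4, lower; 2.33%) and 0 of 6 from HE2 to HP (0.00395%). Where SM entered, Msln was not tested, and 0 of 9 members from d1 BC to SM (0.234%) and 0 of 8 from HE1 to SM (0.568%) were called. At an unadjusted p under 0.05 there were 2 members from 5 h to d1 BC (2474 of 23434 genes), 2 from d1 BC to SM (1352 of 23078), 4 from HE1 to SM (2016 of 23403) and 2 from HE2 to HP (1534 of 25343). Without both SM replicate 2 arrays the 5 calls became 11, with Gpm6a from d1 BC to HE1, Upk1b, Lrrn4 and Gpm6a between HE1 and SM, and Krt19 and Gpm6a from HE1 to HE2 added, while calls over all genes at the 7 steps went from 2453 to 4096. Over the 7 untreated groups 7 of 9 members varied (all but Krt7 and Gpm6a; Msln not counted), beside 17.9% of all genes.

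Of 6 lists of related genes (mesothelial and epicardial genes, uroplakin and mesothelin relatives, other keratins and intermediate filaments, epithelial junction genes, relatives of Gpm6a and Lrrn4, and partners and targets of WT1), 0 genes were called for DOX in the 5 populations other than SM or for the mean effect. In these populations 2 to 16 genes of a list were tested. Of all genes tested, 0% to 0.0398% were called in each population and 0.0356% for the mean effect, so 0 is what most lists would give. Of 14 further mesothelial and epicardial genes tested from FLK1+ to 5 h, 1 was called (2.84% of all genes), Clu, a secreted chaperone (2.33 on the log2 scale), and the list median was 0.02 beside -0.18 over all genes. From 5 h to d1 BC 1 of 14 was called (1.44% of all genes), Bnc1, a basonuclin, at least 19.2-fold lower and below background on both d1 BC arrays. Tcf21, an epicardial transcription factor, was below background in d1 BC and called higher both in SM (at least 3.10-fold, 1 of 15 beside 0.234% of all genes) and in HE1 (at least 2.63-fold). In the step to HE1 Pdpn (-4.09 on the log2 scale) and the protease inhibitor Slpi (at least 3.55-fold lower, below background in HE1) were also called, which makes 3 of 14 tested (3.13% of all genes). From HE1 to HE2 2 of 12 were called (2.33% of all genes), both lower: Gata6 at -2.86, and Pdpn at a fitted -5.14, with 1 of the 2 HE2 arrays above background. Over the untreated groups 12 of 15 varied, beside 17.9% of all genes.

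Of the other keratins and intermediate filaments, 3 of 10 were called from FLK1+ to 5 h (2.84% of all genes), all higher: Krt17 at a fitted 3.56 (1 of the 2 FLK1+ arrays above background), the neural stem cell filament Nes at 2.52 and the lamin Lmna at 2.36 on the log2 scale. Pkp2, a desmosomal plaque gene, rose at 5 h (2.92) and Perp, a desmosomal membrane gene, rose too (2.20), 2 of 16 epithelial junction genes tested in that step. Pkp1 fell from 5 h to d1 BC (a fitted -6.69, with 1 of the 2 d1 BC arrays above background), 1 of 16 (1.44% of all genes). From d1 BC to HE1 the tight junction gene Ocln rose from below background (at least 4.75-fold) and Lsr fell (-2.42), 2 of 15 (3.13% of all genes). Perp was higher in SM than in HE1 (2.36), 1 of 16 (0.568% of all genes), and from HE1 to HE2 Dsp (a fitted -4.98, 1 of the 2 HE2 arrays above background), Tjp1 (-2.94) and Lsr (-2.42) fell while Perp rose (2.71), 4 of 14 (2.33% of all genes). The shares over all genes hold for the same steps in the lists that follow. Lrrn4cl, named for its likeness to the C-terminal part of Lrrn4, rose at 5 h (a fitted 2.52, 1 of the 2 FLK1+ arrays above background), 1 of 5 relatives of Lrrn4 and Gpm6a tested, in the step in which Lrrn4 itself differed by -1.39 without passing (adjusted p = 0.201), or by -0.90 without FLK1+ 5h replicate 1. Tspan8, a tetraspanin like Upk1b, was higher in HE1 than in d1 BC (a fitted 3.43, 1 of the 2 d1 BC arrays above background) and lower in SM than in HE1 (a fitted -3.58, 2 of the 3 SM arrays above background), 1 of 3 tested each time. Among the partners and targets of WT1, Pawr, a protein that binds WT1, rose at 5 h (3.10), 1 of 8, and Snai1, a repressor of epithelial genes, fell from d1 BC to HE1 (-2.59) and from HE1 to HE2 (a fitted -3.72, 1 of the 2 HE2 arrays above background), again 1 of 8 each. Amhr2, the receptor of anti-Müllerian hormone, fell from 5 h to d1 BC (-4.63).

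The genes whose 13 group means ran most like those of Msln, among 16371 genes with a symbol that were well above background throughout 1 group or more, included Ptpn21 (Pearson r 0.97), Sgms2 (0.94), Fcmr (0.93) and Klk6 (0.93). Ptpn21 encodes a tyrosine phosphatase. The likeness takes in the SM groups by which Msln was chosen and every other group mean, so differences of these genes between the same groups are part of how they were picked. For Wt1 they were Vgll3 (0.96), a cofactor of TEAD proteins, Tagln (0.96), the smooth muscle protein SM22α, Arhgap8 (0.95), Sema3b (0.95) and Pkp2 (0.95). These correlations are descriptions over points that share arrays.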

How the data were processed

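RNA of 27 samples in 13 groups was hybridised to Agilent mouse arrays, 1 colour each. The deposited spot signal is an intensity, background-subtracted and detrended by the authors' Feature Extraction software (10.7.1.1 in the submitters' notes, 10.7.3.1 in the file headers). The deposited median signal and background are intensities too, and the series-wide matrix deposited by the authors holds log2 values normalised between arrays, which the paper says were analysed with limma. Here log2 of the signal was centred on the 75th percentile of each array. Outlier spots (0.0553% of values missing) and controls were removed, and symbols came from RefSeq accessions (20141 of 37208 genes). The brightest probe stood for a gene, and each member had 1. The 13 group means were estimated over all 27 arrays in limma 3.58.1 (lmFit and eBayes; R 4.3.3, 14 residual and 4.49 prior degrees of freedom). A gene was tested if well above background on all arrays of 1 group compared, with Benjamini-Hochberg adjustment over all genes tested. Bounds ("at least") set the mean of the brighter group against the higher of the dim signal and the lowest signal well above background on each dim array. On simulated data for DOX in HE1, 91 of 200 genes changed 8-fold were recovered among 23199 genes.

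The members and all gene lists were chosen with earlier results of these data known. Named were the 10 members, list genes called in a step (at most 5 per step, list by list; markers as sums) and, for Msln and Wt1, the 5 genes most alike over group means, of which 1 is not reported here. The files were read with the data.table package of R (1.17.8), Python 3.11.15, pandas 2.3.3 and numpy 2.4.6, and figures matplotlib 3.10.9. Alternatives were normexp (offset 50), quantile and median scaling, the authors' values, other filters, thresholds, blocks, trend, weights, only the groups compared, and each array left out. Not analysed here were sequencing, flow cytometry and DOX on cells without the cassette.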

Additional observations from a re-analysis of the deposited data

Results flagged for a closer look

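Wt1 is listed because its DOX arrays lay above every untreated array in SM cells and below every untreated array at 5 h and in HE1. The log2 difference was 0.42 in SM cells, -1.09 at 5 h and -1.51 in HE1. At 5 h it was -0.63 without untreated replicate 1 and -0.29 in the same-slide pair. The difference between populations was not tested for SM, whose contrast served to choose the genes, and among the other 5 populations the F test of unequal effects gave an adjusted p of 1.00 for Wt1 (limma). In SM cells the gap between the DOX and the untreated arrays was near 0. Groups here hold 2 or 3 arrays, too few for a test of single outlying arrays.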

How the results depend on the processing

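No member was called for DOX outside SM in any single population under any alternative. Of 38 single differences of members followed, 1 turned its direction, Msln from d1 BC to HE1: -1.24 became 0.32 with normexp and, with single arrays left out, lay between -2.55 (without d1 BC untreated replicate 2) and 0.060 (without d1 BC untreated replicate 1). Neither HE1 array was well above background for Msln, so this turn rests on background readings. The mean effect called 1 member (Msln) with slide as a random block and 0 otherwise. The 5 member calls at steps became 8 with normexp (3 of the 5 among them), 11 with the authors' values, 3 with detection in all groups compared, 11 with both SM replicate 2 arrays left out (chosen after seeing the data), 11 with slide as a random block and 17 with array quality weights. Over all genes the 2453 calls at steps became 2341, 5597, 1007, 4096, 5034 and 6659 in the same order, and 4182 with quantile normalisation (7 member calls). With only the groups compared there were 4 member calls and 783 over all genes, with 0 over all genes from d1 BC to HE1 and from HE1 to HE2, and with slide as a fixed block 4 and 2175. In each of these last 2 fits 2 of the 4 were among the 5 calls reported, Msln and Wt1 at 5 h in the former and, in the latter, Msln at 5 h and Lrrn4 from HE1 to HE2. Leaving out 1 array at a time gave 3 to 7 member calls and 1271 to 3264 over all genes, the fewest member calls without d1 BC untreated replicate 2 and without FLK1+ 5h untreated replicate 1. The 7 members that varied became 3 with detection in all groups compared, which tests fewer genes. The Msln difference in SM cells, -3.91, was -1.30 with normexp, -3.32 with quantile normalisation, -1.28 on the authors' values and -4.63 without both replicate 2 arrays, and -4.50 to -3.31 with single arrays left out. A group left with 1 array took its spread from the others. Over the 1582 fits of the 38 differences, 1528 kept direction and side of the threshold, 18 lost a call, 34 gained one and 2 turned direction. The 28 calls of list genes at steps were made in 916 of 1135 alternative fits, with no change of direction, and least often for Bnc1 from 5 h to d1 BC (16 of 40), Perp between HE1 and SM (16 of 41) and Snai1 from d1 BC to HE1 (20 of 41). Apart from those named, the cause was not tested.

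The labels do not say what a replicate number shares. Same-numbered deviations correlated at 0.15 to 0.55 in 5 populations and at -0.13 at 5 h, and since pairing was to be used only where every correlation was over 0.1, the tests carry no block. With a replicate block the members called were 0 for DOX, 5 at steps and 8 for variation, and Msln in SM cells differed by -3.87. Over all genes, the DOX calls in the 5 populations went from 11 to 4 with the replicate block, 0 with one within each population and 1 with the 5 h numbers crossed (the last 2 chosen after seeing the data), and to 24 with slide as a fixed and 62 with slide as a random block. Levels near background set only bounds.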
